A study of Rattus norvegicus with 16 samples.

Results

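The genes described here are enzymes of glycolysis and genes whose transcription rises when cells lack oxygen. They were taken from a list of 32 gene symbols, and a gene was counted when a probe set of the array carried its symbol alone in the platform annotation. This held for 31 of the 32 symbols, out of 14217 genes measured in all. The symbol that was not met is Pkm, the muscle-type pyruvate kinase, whose probe set carries a second symbol, so Pkm has no value here. Of the 31 genes, 30 lie on ordinary probe sets and Gapdh lies on the control probe sets of the array. Where a gene had several probe sets, the one with the highest mean over the 16 arrays was used.

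Glycolysis splits glucose into pyruvate through a chain of cytosolic enzymes, starting with glucose transporters and hexokinases and ending in pyruvate, which is either reduced to lactate by lactate dehydrogenase or oxidized in mitochondria. When oxygen is scarce, hypoxia-inducible factors escape degradation through the von Hippel-Lindau protein and switch on many of these enzymes, together with angiogenic, mitophagy and pH-regulating genes. Chromaffin cells of the adrenal medulla are the cells of origin of pheochromocytoma, and in human pheochromocytomas with inherited defects of the von Hippel-Lindau protein or of succinate dehydrogenase this programme is known to be active.

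The study measured RNA of rat adrenal tissue on 16 Affymetrix arrays and set adrenal medullary hyperplasia and pheochromocytoma of p27Kip1-mutant rats against the adrenal medulla of wild-type littermates. The strain of all animals was given as Sprague–Dawley white eye/Wistar–Kyoto. The mutant rats (genotype p27Kip1, spelled Cdknb1 in the labels) belong to the MENX model of multiple endocrine neoplasia, and p27Kip1 is an inhibitor of cyclin-dependent kinases. The hyperplasia group has 8 arrays of 2-month-old mutants, with replicates 1 to 4 labelled female and 5 to 8 labelled male. The young wild-type group has 2 arrays at 2 months, a pool of 2 animals labelled male (pool 1) and a pool of 3 animals labelled female (pool 2). The pheochromocytoma group has 4 mutant tumours, of which tumours 1 to 3 came from 8-month-old animals labelled female and tumour 4 from a 9-month-old animal labelled male. The older wild-type group has 2 arrays, a pool of 2 animals labelled female at 10 months (pool 1) and a pool of 2 animals labelled male at 12 and 17 months (pool 2). The study calls the wild-type animals age-matched, but by their labels both older pools are older than the tumour animals, and age cannot be told apart from lesion in that comparison. Pooling hides the spread between single animals, so the spread among wild-type arrays is that between pools.

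Values are log2 probe-set signals, and a log2 difference of 1 is a doubling. The array medians lay between 6.51 and 6.61. The signal of Xist, the RNA that silences one X chromosome in females, was 11.29 to 12.66 on 9 arrays and 2.86 to 4.32 on the other 7. It disagreed with the labelled sex on 6 arrays, namely hyperplasia 1, 2, 5 and 6 and both young pools, and with none of the 6 older arrays, so the fit was repeated without labelled sex and without the 4 hyperplasia arrays concerned. Cdkn1b, the rat gene of p27Kip1, read 11.58 to 11.86 in hyperplasia, 10.89 to 11.04 in the young pools, 11.39 to 11.70 in the tumours and 10.45 to 10.73 in the older pools. The chromaffin cell enzymes Th and Dbh were bright in all 4 groups, at 13.68 to 14.28, and the mean of 10 adrenal cortex markers ran from 10.62 to 11.41 in hyperplasia against 11.73 to 11.90 in the young pools, and from 10.45 to 11.79 in the tumours against 12.09 to 12.41 in the older pools. Every group therefore held cortical RNA, and the marker means were lower in both lesions. In bulk tissue, fewer cells of a type and less RNA per cell cannot be told apart. Fits with the mean of the cortex markers as an added term are given beside the called genes, and the part of cortical RNA was not tested in any other way.

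Few of these genes differed from wild type in hyperplasia, and those that did in the tumours moved in both directions. In hyperplasia 1 of the 30 genes on ordinary probe sets passed the test (3.33%), while 8.5% of all 14217 genes passed. That gene was Hk1, which rose (5.16% of all genes were higher and passed). In pheochromocytoma 5 of 30 passed (16.7%, against 15.3% of all genes), with 2 higher (Ndrg1 and Ankrd37, against 8.85% of all genes) and 3 lower (Pgk1, Pgam1 and Ddit4, against 6.49%). Gapdh, tested in a fit that kept the control probe sets, fell as well. The median log2 difference of the 30 genes was -0.02 in hyperplasia, beside -0.01 over all genes, and -0.07 in the tumours, beside 0.00289 over all genes. The share of these genes that passed therefore lay below the share of all genes in hyperplasia and near it in the tumours.

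The test was limma over all 16 arrays with labelled sex as a covariate, and adjusted p-values are Benjamini-Hochberg values over all 31042 probe sets. Differences are given ± the standard error of that fit. With 2 wild-type pools on each side, the exact permutation test cannot give a two-sided p below 0.0222 in hyperplasia or below 0.0667 in the tumours. All 5 calls of the tumours were lost without tumour 4, where 0 of 30 passed beside 2159 of all 31042 probe sets. Without older pool 2 a single older pool is left. The tumour differences were then -0.44 for Pgk1, -0.35 for Pgam1, 0.27 for Ndrg1, 0.33 for Ankrd37 and -0.32 for Ddit4. All 5 were smaller than with both pools, so the calls lean on older pool 2 as well.

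**Figure D1:**
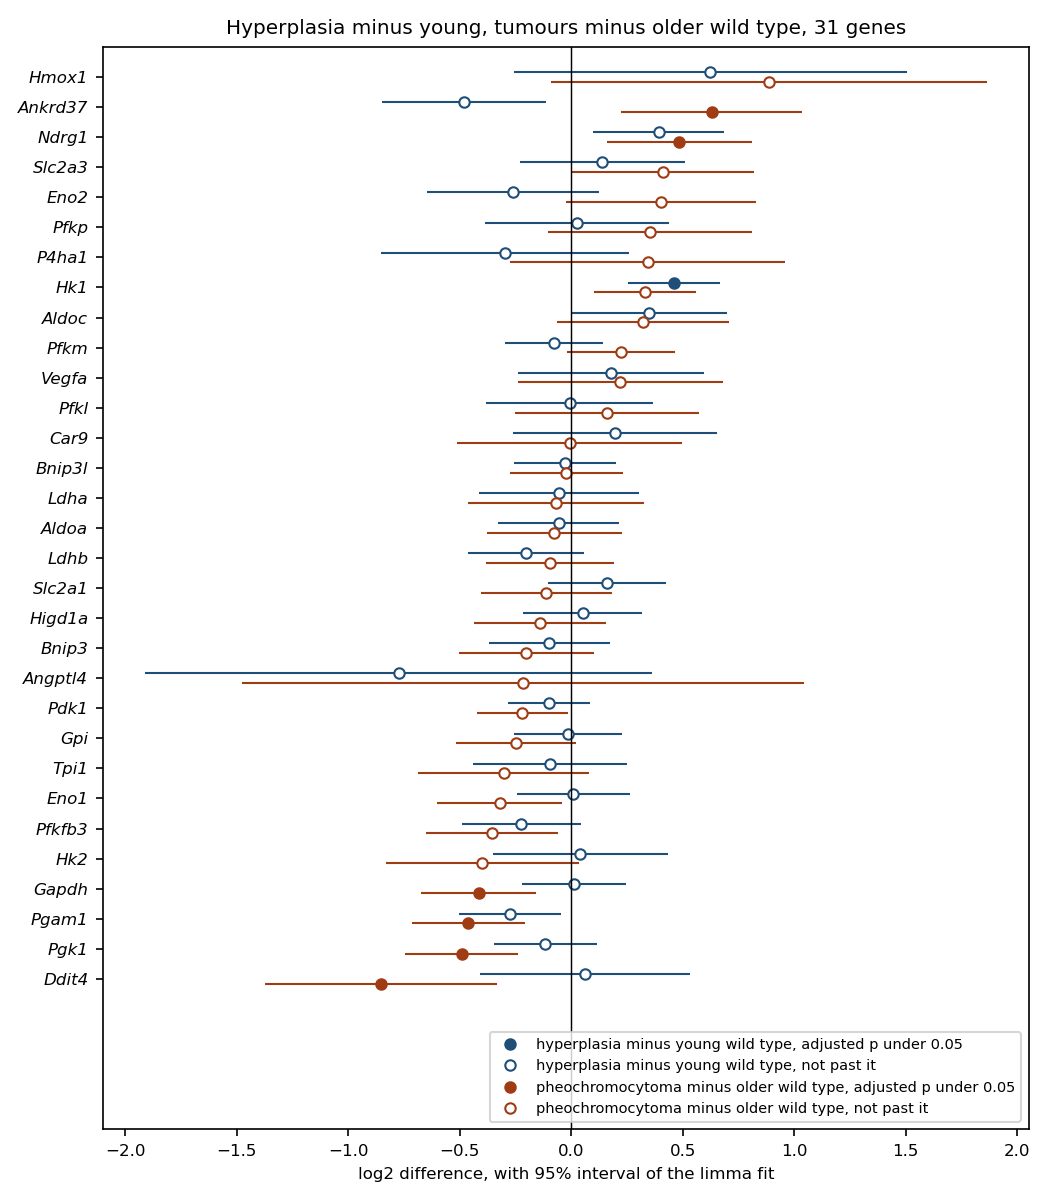
Log2 difference from wild type for the 31 genes, hyperplasia minus young pools in blue and pheochromocytoma minus older pools in red, with the 95% interval of the limma fit and filled points for an adjusted p under 0.05. Hk1 is the single filled blue point, and the filled red points are Ankrd37 and Ndrg1 above 0 and Gapdh, Pgam1, Pgk1 and Ddit4 below 0.

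Glucose enters through facilitative transporters. Slc2a1 (GLUT1), the widespread basal transporter, read 8.28 and 8.36 in the young pools, 8.28 to 8.76 in hyperplasia (median 8.44), 8.44 and 8.45 in the older pools, and 8.33, 8.32, 8.52 and 8.20 in tumours 1 to 4. Its groups overlapped in hyperplasia and in the tumours. The difference was 0.16 ± 0.12 in hyperplasia (95% interval -0.10 to 0.43, adjusted p = 0.486) and -0.11 ± 0.14 in the tumours (-0.41 to 0.18, adjusted p = 0.637). Slc2a3 (GLUT3), the high-affinity neuronal transporter, was 0.41 ± 0.19 higher in the tumours with an adjusted p of 0.172, and its older pools were far apart, at 11.03 and 10.31. On its dimmer probe set the older pools lay close together, at 5.90 and 5.83, and the tumours above both, at 6.37 to 7.22. That difference of 1.06 ± 0.36 did not pass (adjusted p = 0.0632).

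The hexokinase Hk1, which traps glucose as glucose 6-phosphate, was the one gene of the 30 to pass in hyperplasia. It read 10.22 and 10.15 in the young pools and 10.54 to 10.78 in hyperplasia (median 10.65), so all 8 hyperplasia arrays lay above both pools. The difference was 0.46 ± 0.10, or 1.38-fold (adjusted p = 0.0106, exact permutation p = 0.0222, the smallest that 45 splits allow). In the tumours Hk1 read 10.14, 10.05, 10.35 and 10.16 against 9.90 and 9.78 in the older pools. All 4 tumours again lay above both pools, at a difference of 0.33 ± 0.11 that did not pass (adjusted p = 0.055). Hk1 did pass in the tumours with no sex term, with the Xist level in place of sex, with an intensity trend and robust prior, without the 30% dimmest probe sets, and without tumour 2. Its control probe sets (3′, middle and 5′) and its dimmest one gave 0.11, -0.13, -0.09 and -0.11 in the tumours. The adjusted p-values were 0.66, 0.466, 0.802 and 0.726. In hyperplasia they gave 0.41, 0.32, 0.13 and 0.16 (adjusted p = 0.0702, 0.068, 0.746 and 0.6). With the mean of the ordinary probe sets of Hk1 the hyperplasia difference was 0.31 (adjusted p = 0.103). The hyperplasia call was lost without young pool 1 (0.52, adjusted p = 0.0575), without young pool 2 (0.40, 0.18), and with the mean of the cortex markers in the fit (0.44, 0.11). It held on all arrays with no sex term (adjusted p = 0.00786), and without the 4 hyperplasia arrays whose Xist disagrees with the label and with no sex term it was 0.46 (adjusted p = 0.0623). Both young pools disagree with their labels, so no fit can leave both out.

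The other members of the upper pathway did not pass in either comparison. Hk2, the insulin- and hypoxia-responsive hexokinase, was near the floor of the arrays, at 4.20 to 5.06 over all 16, and lay below its array's first quartile on 13 of them. Gpi, which turns glucose 6-phosphate into fructose 6-phosphate, was lower in all 4 tumours than in both older pools without passing (-0.25 ± 0.13, adjusted p = 0.205). The 3 phosphofructokinase genes Pfkl, Pfkm and Pfkp, whose enzyme makes the committed step, differed by -0.08 to 0.03 in hyperplasia and by 0.16 to 0.35 in the tumours, with adjusted p-values from 0.204 to 0.988. Aldoc, the brain-type aldolase, lay higher on all 8 hyperplasia arrays than in both pools (0.35 ± 0.16, adjusted p = 0.221). The lowest of these arrays was barely above, at 9.361 against 9.358 in the higher pool. The muscle-type aldolase gene Aldoa stayed within 0.08 of wild type in both lesions, with intervals of -0.33 to 0.22 and -0.38 to 0.23.

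Pfkfb3 makes fructose 2,6-bisphosphate, the strongest activator of phosphofructokinase, and is a direct target of HIF-1. It read 6.60 and 6.79 in the young pools and 6.25 to 6.66 in hyperplasia (median 6.50). In the older pools it read 7.04 and 6.84, and in the tumours 6.58, 6.65, 6.56 and 6.60. All 4 tumours were below both older pools, while the hyperplasia arrays overlapped the young pools. The difference was -0.22 ± 0.13 in hyperplasia (-0.49 to 0.04, adjusted p = 0.312) and -0.35 ± 0.14 in the tumours (-0.65 to -0.06, adjusted p = 0.105). The latter passed after quantile normalization over the 16 arrays (-0.45, adjusted p = 0.0406).

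Of the later part of glycolysis, which yields ATP, 3 genes fell in the tumours (Gapdh, Pgk1 and Pgam1), while Eno1, Eno2 and Ldha did not pass. Gapdh, glyceraldehyde 3-phosphate dehydrogenase, read 12.28 and 12.46 in the older pools and 11.96, 11.96, 12.03 and 11.87 in tumours 1 to 4. All 4 tumours were below both pools, by -0.42 ± 0.12 (1.33-fold, adjusted p = 0.0353 with the control probe sets kept, exact permutation p = 0.0667). In hyperplasia it ran from 12.22 to 12.62 (median 12.30) around the young pools at 12.33 and 12.32, a difference of 0.01 ± 0.11 (-0.22 to 0.25, adjusted p = 0.962). Its probe sets for the middle and the 5′ part of the transcript gave -0.52 (adjusted p = 0.0219) and -0.56 (0.0264) in the tumours.

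Pgk1, phosphoglycerate kinase, is the next enzyme and a textbook HIF-1 target. It read 12.35 and 12.43 in the older pools against 12.13, 11.80, 11.90 and 11.77 in the tumours. Every tumour was below both pools, and tumour 1 was the nearest to them. The difference was -0.49 ± 0.12, or 1.41-fold (adjusted p = 0.0155, exact permutation p = 0.0667), and a second probe set of Pgk1 gave -0.76 ± 0.11 (adjusted p = 0.000975). In hyperplasia Pgk1 ran from 12.13 to 12.45 (median 12.18) against 12.33 and 12.35, an overlap at -0.12 ± 0.11 (-0.35 to 0.11, adjusted p = 0.579). Its second probe set did not overlap there, at 10.96 to 11.20 in hyperplasia against 11.39 and 11.40 in the young pools. That difference was -0.30 ± 0.10 and did not pass (adjusted p = 0.0767).

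Pgam1, phosphoglycerate mutase, followed in the same order of the pathway. It read 12.93 and 13.12 in the older pools and 12.75, 12.47, 12.61 and 12.42 in the tumours, with no overlap. Pgam1 differed by -0.46 ± 0.12, or 1.38-fold (adjusted p = 0.02, exact permutation p = 0.0667). In hyperplasia its values of 12.49 to 12.76 (median 12.61) also lay below both young pools, at 12.85 and 12.93, but the difference of -0.28 ± 0.11 did not pass (-0.50 to -0.05, adjusted p = 0.138).

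For these 3 genes the tumour calls were lost without tumour 4 (adjusted p = 0.107 for Gapdh, 0.0596 for Pgk1 and 0.0767 for Pgam1) and without older pool 2 (0.353, 0.182 and 0.272). With the mean of the cortex markers in the fit the differences shrank to -0.22, -0.23 and -0.17 (adjusted p = 0.615, 0.544 and 0.641). The 2 remaining genes of this stretch did not pass in either comparison. Eno1, the ubiquitous enolase, was below both older pools in all 4 tumours (-0.32 ± 0.13, adjusted p = 0.118), whereas Eno2, the neuronal enolase known as a neuroendocrine marker, was above both (0.40 ± 0.20, adjusted p = 0.197). Tpi1, triosephosphate isomerase, overlapped the pools in both lesions (-0.09 ± 0.16 and -0.30 ± 0.18).

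**Figure D2:**
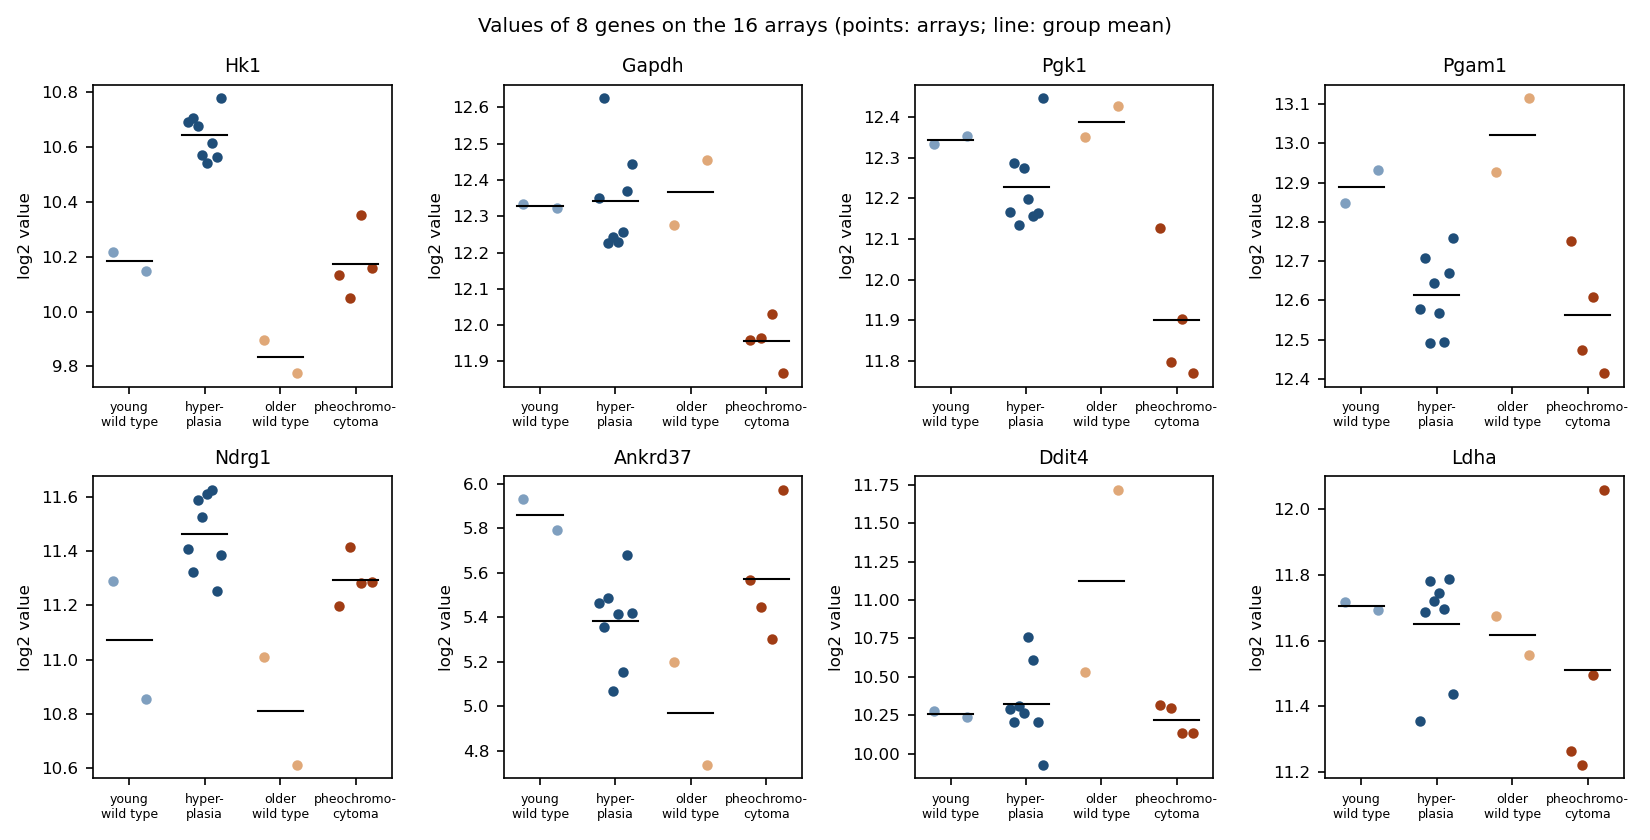
Log2 values of 8 genes on the 16 arrays, by group, with each point an array, each line a group mean, and a separate vertical scale for each gene. Hk1 lies above the pools in both lesions, Gapdh, Pgk1 and Pgam1 lie below the older pools in the 4 tumours, and in Ldha tumour 4 stands above the other 3 tumours.

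Pyruvate has a pair of fates that this gene list covers. Ldha, the lactate dehydrogenase subunit favoured for making lactate and a textbook HIF-1 target, read 11.72 and 11.69 in the young pools and 11.36 to 11.79 in hyperplasia (median 11.71). In the older pools it read 11.68 and 11.56, and in the tumours 11.27, 11.22, 11.50 and 12.06. Tumours 1 to 3 were below both older pools and tumour 4 above both. The differences were -0.05 ± 0.17 (-0.41 to 0.30, adjusted p = 0.892) and -0.07 ± 0.19 (-0.46 to 0.33, adjusted p = 0.845). Ldhb, the subunit favoured for the reverse reaction, overlapped the pools in both lesions, at -0.20 ± 0.12 and -0.10 ± 0.14.

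Pdk1 phosphorylates and so shuts pyruvate dehydrogenase, which keeps pyruvate out of mitochondria. It read 7.96 and 8.06 in the young pools, 7.81 to 8.01 in hyperplasia (median 7.90), 8.03 and 8.15 in the older pools, and 7.82, 7.82, 7.96 and 7.84 in the tumours. All 4 tumours lay below both older pools, and the hyperplasia arrays overlapped the young ones. The difference in the tumours was -0.22 ± 0.10 (-0.42 to -0.01, adjusted p = 0.146), and its second, dimmer probe set gave -0.69 ± 0.21 (adjusted p = 0.0441). In hyperplasia it was -0.10 ± 0.09 (-0.28 to 0.09, adjusted p = 0.547).

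Of the secreted and matrix-related targets, Vegfa, the main angiogenic factor, read 10.05 and 9.74 in the young pools and 9.84 to 10.25 in hyperplasia (median 10.07). In the older pools it read 10.45 and 10.35, and in the tumours 10.20, 10.31, 10.60 and 11.24. Tumours 1 and 2 were below both pools and tumours 3 and 4 above both. The differences were 0.18 ± 0.19 (-0.24 to 0.59, adjusted p = 0.648) and 0.22 ± 0.22 (-0.24 to 0.68, adjusted p = 0.539), and without tumour 4 the latter was -0.06. Angptl4, a lipoprotein lipase inhibitor induced by hypoxia and fasting, had the widest spread among the tumours, from 6.18 to 8.95, and P4ha1, a collagen prolyl hydroxylase subunit, ran from 8.04 to 9.11. Neither passed in either comparison.

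Car9, the cell-surface carbonic anhydrase often used to stain hypoxic tumour regions, was dim throughout. It read 3.91 and 4.43 in the young pools, 3.84 to 4.77 in hyperplasia (median 4.39), 4.80 and 5.09 in the older pools, and 4.95, 5.17, 4.81 and 4.93 in the tumours. These values lay below the array's first quartile on 11 of the 16 arrays, so they carry little information on its level. The groups overlapped in both lesions, with differences of 0.20 ± 0.21 (-0.26 to 0.65, adjusted p = 0.646) and -0.01 ± 0.24 (-0.51 to 0.50, adjusted p = 0.991).

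The 2 genes that rose in the tumours were Ndrg1 and Ankrd37. Ndrg1, a stress-responsive gene known for strong induction by hypoxia, read 11.01 and 10.61 in the older pools and 11.20, 11.42, 11.28 and 11.28 in the tumours. All 4 tumours were above both pools, by 0.49 ± 0.15, or 1.40-fold (adjusted p = 0.0498, exact permutation p = 0.0667). In hyperplasia it ran from 11.25 to 11.62 (median 11.47) against 11.29 and 10.85, a difference of 0.39 ± 0.14 that did not pass (adjusted p = 0.104). With the Xist level in place of the labelled sex it passed in hyperplasia as well. The second, dimmer probe set of Ndrg1 gave 0.19 ± 0.22 in the tumours (adjusted p = 0.618) and 0.009 ± 0.20 in hyperplasia (0.986). With the mean of its probe sets the tumour difference was 0.34 and the call was lost (adjusted p = 0.223).

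Ankrd37, a small ankyrin-repeat gene and direct HIF-1 target, lay on opposite sides of its pools in the 2 lesions. In the older pools it read 5.20 and 4.74 and in the tumours 5.57, 5.44, 5.30 and 5.97, all above both pools (0.63 ± 0.19, 1.55-fold, adjusted p = 0.0414, exact permutation p = 0.0667). In the young pools it read 5.93 and 5.79, above all 8 hyperplasia arrays at 5.07 to 5.68 (median 5.42), but the difference of -0.48 ± 0.17 did not pass (adjusted p = 0.107). It is a dim gene, and the lower older pool lay under its array's first quartile. Ankrd37 was the 1 gene of 31 with all arrays of the lesions on opposite sides of their pools (3.23%), against 0.499% of all genes.

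Ddit4 (REDD1), an inhibitor of mTORC1 induced by hypoxia, glucocorticoids and other stress, fell in the tumours. It read 10.53 and 11.72 in the older pools and 10.32, 10.30, 10.14 and 10.14 in the tumours, so all 4 tumours lay below both pools, which were themselves 1.19 apart. Ddit4 differed by -0.85 ± 0.24, or 1.80-fold (adjusted p = 0.0334, exact permutation p = 0.0667). Without older pool 2, the pool of the oldest animals, it was -0.32 (adjusted p = 0.565), and without older pool 1 it was -1.46 (0.00213). In hyperplasia it ran from 9.93 to 10.76 (median 10.28) around the young pools at 10.28 and 10.24, a difference of 0.06 ± 0.22 (-0.41 to 0.53, adjusted p = 0.906).

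The calls of Ndrg1 and Ankrd37 were lost without tumour 4 (adjusted p = 0.102 and 0.146) and without older pool 2 (differences of 0.27 and 0.33), and that of Ddit4 was lost without either as well. With the mean of the cortex markers in the fit the tumour differences of Ndrg1, Ankrd37 and Ddit4 were 0.26, 0.40 and -0.74 (adjusted p = 0.645, 0.57 and 0.413), so these calls were lost too. Among the mitophagy genes, Bnip3 and Bnip3l, receptors that mark mitochondria for removal, overlapped the pools in both lesions, with differences of -0.20 to -0.02. Higd1a, a mitochondrial inner membrane protein, did so too (0.05 ± 0.13 and -0.14 ± 0.14). Hmox1, which breaks down heme and answers oxidative stress as well as hypoxia, lay above both pools on all 8 hyperplasia arrays (0.62 ± 0.41, adjusted p = 0.406) and in all 4 tumours (0.89 ± 0.46, adjusted p = 0.216). The gaps were very small. The lowest hyperplasia array read 7.968 against 7.956 in the higher young pool, and the lowest tumour 8.333 against 8.33 in the higher older pool. Tumour 4 read 10.33 and the other tumours 8.33 to 8.51. The intervals of Hmox1, -0.26 to 1.51 and -0.09 to 1.86, are among the widest of the 31 genes.

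Counting only whether groups overlapped, 3 of 31 genes lay above both young pools on every hyperplasia array (9.68%, against 12.7% of all genes) and 2 below (6.45%, against 10.9%). In the tumours 6 of 31 lay above both older pools (19.4%, against 22.7%) and 9 below (29%, against 19.6%). The 6 above were Hk1, Pfkl, Eno2, Ndrg1, Ankrd37 and Hmox1, and the 9 below were Gpi, Pfkfb3, Gapdh, Pgk1, Pgam1, Eno1, Pdk1, Ddit4 and Hk2, so enzymes of glycolysis lay on both sides. Hk2 was under its array's first quartile in all 4 tumours and both older pools, so its place in this count rests on signal near the floor.

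The difference between the tumour effect and the hyperplasia effect was tested as a contrast of its own. Of the 30 genes 0 passed it in limma (0.00703% of all genes, a single gene), and 4 had an unadjusted p under 0.05 (13.3%, against 10.3% of all genes). Ankrd37 came closest, at 1.11 ± 0.26 (adjusted p = 0.181), followed by Ddit4 at -0.92 ± 0.33 (adjusted p = 0.337). For Ankrd37 this difference was 1.46 without older pool 1 and 0.81 without older pool 2. Each of these fits keeps a single older pool, so the size depends on which pool is kept.

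Many HIF-bound sites contain the letters ACGTG or GCGTG, and the RefSeq promoter windows of the rat build GRCr8 were searched for both on both strands. Of the 31 genes, 26 had a window of 250 bases before a transcript start, with 31 windows in all. At least 1 match was present in 22 of the 31 windows (71%) and in 21 of the 26 genes, beside 36.7% of 33469 windows of all genes and 40.8% of 21851 windows of protein-coding genes. The windows of these genes also had more G and C, 62.3% on average against 54.2% for protein-coding genes, and the effect of that on the matches was not tested. The sequences shown here belong to the 4 called genes of the tumours with a window, Ankrd37 (higher), Pgam1, Gapdh and Ddit4 (lower), and to Ldha, whose window held as many matches as that of Ankrd37 while its level did not pass. They are read 5′ to 3′ on the gene's strand, with the matches in capitals. A palindromic CACGTG counts as a match on each strand.
Ankrd37: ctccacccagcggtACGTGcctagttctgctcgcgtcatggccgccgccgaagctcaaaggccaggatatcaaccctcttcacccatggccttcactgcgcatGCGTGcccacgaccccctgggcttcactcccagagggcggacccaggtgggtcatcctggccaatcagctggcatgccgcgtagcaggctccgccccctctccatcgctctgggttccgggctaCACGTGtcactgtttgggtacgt
Pgam1: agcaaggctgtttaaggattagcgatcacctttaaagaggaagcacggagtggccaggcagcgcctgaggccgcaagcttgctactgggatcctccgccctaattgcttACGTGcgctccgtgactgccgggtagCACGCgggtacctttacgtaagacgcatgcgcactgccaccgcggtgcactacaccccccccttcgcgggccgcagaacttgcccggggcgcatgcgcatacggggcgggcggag
Gapdh: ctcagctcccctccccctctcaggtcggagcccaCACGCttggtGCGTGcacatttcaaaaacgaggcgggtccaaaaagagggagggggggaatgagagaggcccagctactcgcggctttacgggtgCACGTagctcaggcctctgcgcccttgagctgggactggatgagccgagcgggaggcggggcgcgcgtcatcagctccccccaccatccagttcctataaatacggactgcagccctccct
Ddit4: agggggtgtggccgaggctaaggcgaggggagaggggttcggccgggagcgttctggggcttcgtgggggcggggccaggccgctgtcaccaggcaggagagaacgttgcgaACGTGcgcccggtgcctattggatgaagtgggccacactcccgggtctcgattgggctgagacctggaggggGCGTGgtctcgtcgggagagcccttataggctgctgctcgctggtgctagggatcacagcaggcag
Ldha: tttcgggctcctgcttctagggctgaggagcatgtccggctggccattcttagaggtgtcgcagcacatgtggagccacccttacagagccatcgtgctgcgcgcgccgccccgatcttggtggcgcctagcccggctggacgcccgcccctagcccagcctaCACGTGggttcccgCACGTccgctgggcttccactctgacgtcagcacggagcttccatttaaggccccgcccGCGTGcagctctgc
The Ankrd37 window (chr16:53001257-53001506, plus strand) has 4 matches, of which the nearest to the start lies 22 bases before it. The Pgam1 window (chr1:250672902-250673151, plus strand) and the Ddit4 window (chr20:28437038-28437287, minus strand) have 2 matches each. The Gapdh window (chr4:159652468-159652717, minus strand) has 3, the nearest 121 bases before the start. The Ldha window (chr1:106507842-106508091, plus strand) has 4, the nearest 14 bases before the start. Genes with matches were thus found among those that rose, those that fell and those that did not pass. The windows of Vegfa, Car9, Gpi, Hk2 and Tpi1 held none, which says only that these letters are not in these 250 bases. A match is a description of the sequence and was not tested as a binding site.

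The 4 tumours were not alike in these genes, and 1 of them stood apart. Tumour 4 was more than 0.5 above the mean of the other 3 tumours in 10 of 31 genes (32.3%), against 4.46% of all genes, and more than 0.5 below in 0, against 4.28%. The 10 genes were Vegfa, Pfkp, Tpi1, Eno2, Ldha, Bnip3, P4ha1, Angptl4, Ankrd37 and Hmox1. The same count for tumours 1, 2 and 3 was 1, 0 and 0 genes, against 2.84%, 1.66% and 2.46% of all genes. Both the tumour and the limit of 0.5 were chosen after the values were seen, and with 1 tumour there is no test.

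Within these 10 genes, Hmox1 read 8.39, 8.33, 8.51 and 10.33 in tumours 1 to 4, and Pfkp, the platelet-type phosphofructokinase, read 10.94, 10.87, 11.33 and 12.10. Tpi1 read 11.68, 11.70, 11.81 and 12.41, and with Vegfa and Ldha as given above it stood highest in tumour 4. In other genes tumour 4 was the lowest of the 4, among them Gapdh, Pgk1, Pgam1, Eno1 and Gpi, so the steps of glycolysis did not move together in it. Tumour 4 was highest of the 4 in 13 of 31 genes (41.9%, against 26% of all genes) and lowest in 9 (29%, against 31.6%).

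Several measured features moved with tumour 4. It is the only tumour labelled male and the only one from a 9-month-old animal, and the 4 tumours do not allow those to be told apart from the tumour itself. Its adrenal cortex markers were lower, with a list mean of 10.45 against 11.17 to 11.79 and 9 of 10 markers more than 0.5 below the other tumours. The endothelial markers had a list mean of 9.11 against 8.62 to 8.73, with 4 of 9 more than 0.5 above, and the fibroblast and pericyte markers one of 9.19 against 8.49 to 8.69, with 6 of 9. Of 3 red blood cell genes 2 were above, and of 11 macrophage and leukocyte markers 0. Of 37 other hypoxia-responsive genes 6 were above (Adm, Egln3, Loxl2, Stc2, Igfbp3 and Cxcr4) and 2 below. The part of these cell types, of sex and of age in the tumour 4 values was not tested.

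**Figure D3:**
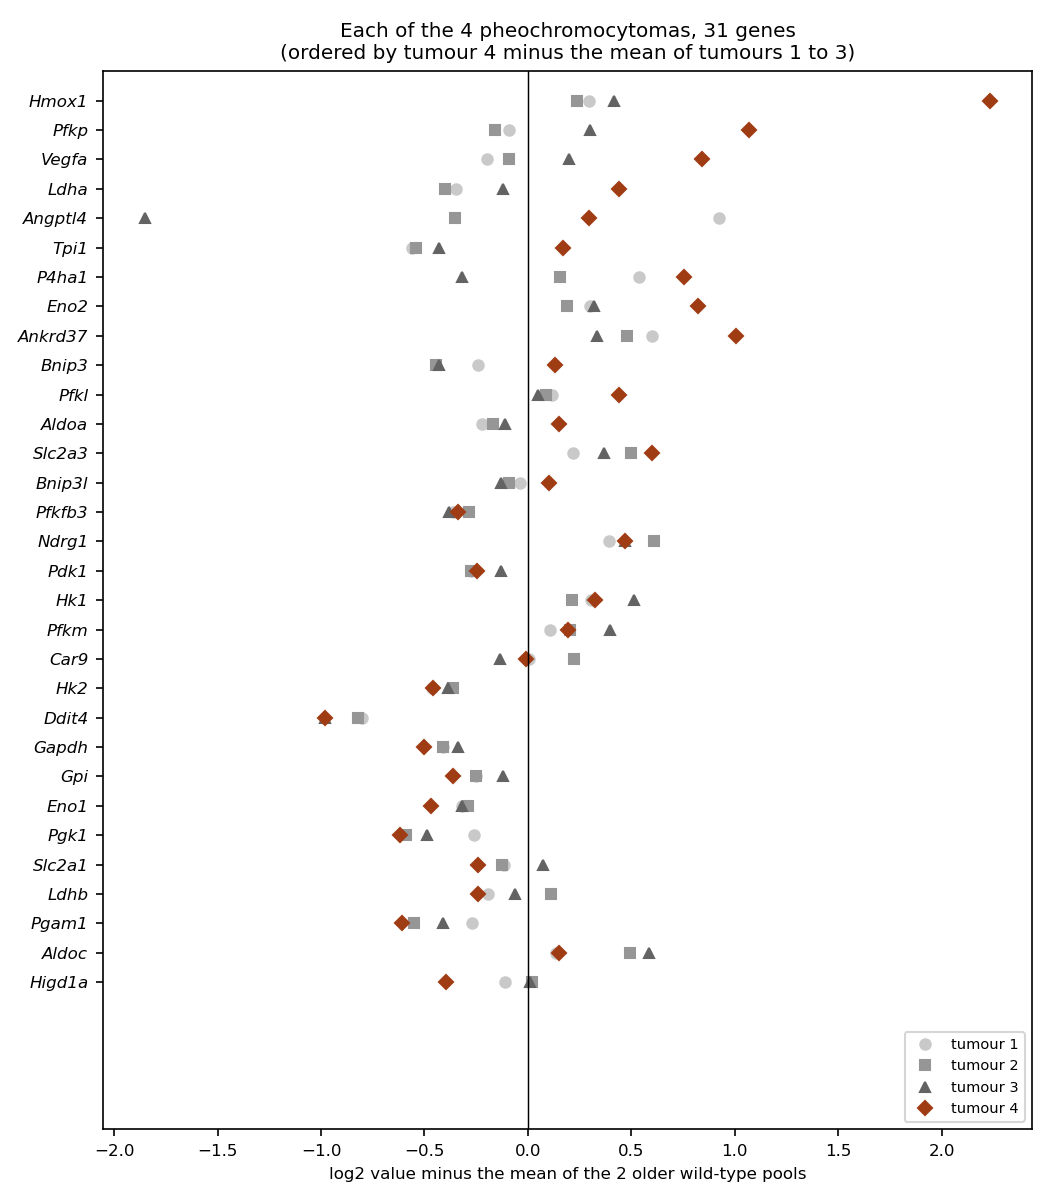
Log2 value of each of the 4 pheochromocytomas minus the mean of the 2 older wild-type pools, for 31 genes ordered by tumour 4 minus the mean of the other tumours. Tumour 4 (red diamonds) stands to the right of the other 3 from Hmox1 down through Pfkp, Vegfa and Ldha, and to their left in Higd1a and Pgam1 at the bottom.

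Pheochromocytoma was also set against hyperplasia, which compares lesions of the same genotype that differ in age as well as stage. Of 30 genes 9 passed (30%, against 33.8% of all genes), with 3 higher in the tumours (against 14.6% of all genes) and 6 lower (against 19.2%). The 3 higher were Vegfa (0.55 ± 0.15, adjusted p = 0.011), Eno2 (0.58 ± 0.14, 0.00478) and the dim Car9 (0.58 ± 0.17, 0.0136). The 6 lower were Eno1 (-0.54 ± 0.09, adjusted p = 0.000327), Hk1 (-0.48 ± 0.08, 0.000164), Bnip3l (-0.45 ± 0.08, 0.000664), Gpi (-0.38 ± 0.09, 0.00332), Pgk1 (-0.33 ± 0.09, 0.00612) and Higd1a (-0.27 ± 0.10, 0.0428). Gapdh, in its own fit, was lower by a log2 difference of -0.39 ± 0.09 (adjusted p = 0.00213). Without tumour 4, 5 of the 30 passed, and Vegfa was at 0.26 (adjusted p = 0.116).

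The wild-type pools differed with age too. Of 30 genes 6 passed between older and young pools (20%, against 21.1% of all genes). Ddit4 was higher in the older pools, by 0.87 ± 0.28 (adjusted p = 0.0361). Car9 passed as well (0.78 ± 0.27, adjusted p = 0.049), but it lay under the first quartile of the array in both young pools and 1 older pool, so the size of its difference is not well measured. P4ha1 (-0.998 ± 0.33, adjusted p = 0.0402), Ankrd37 (-0.89 ± 0.22, 0.00829), Pfkm (-0.47 ± 0.13, 0.0178) and Bnip3l (-0.45 ± 0.14, 0.0258) were lower. The second probe set of Bnip3l gave 0.24 ± 0.12 (adjusted p = 0.159), and the mean of its probe sets gave -0.11 (0.478). This comparison shares the older pools with the tumour comparison and the young pools with the hyperplasia comparison, so for Ankrd37 and Ddit4 the pools enter all 3 values. With 2 pools on each side, leaving 1 out keeps a single pool there. In the order Ddit4, Car9, P4ha1, Ankrd37, Pfkm and Bnip3l, the differences without older pool 2 were 0.29, 0.55, -1.10, -0.57, -0.29 and -0.38. Without young pool 1 they were 0.78, 0.54, -0.57, -0.87, -0.40 and -0.37. The sizes therefore depend on single pools.

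The gap between 3′ and 5′ control signals, a usual check of RNA integrity, moved with age in these arrays. The control probe sets for the 3′ and the 5′ end of 3 transcripts (hexokinase, GAPDH and beta-actin) differed by a mean of 0.93 to 1.02 in the young pools and 0.89 to 1.34 in hyperplasia, against 1.73 to 1.94 in the older pools and 1.73 to 2.17 in the tumours. The 5′ hexokinase probe set read 6.87 to 7.51 on the young arrays and 3.70 to 4.48 on the older ones. With the mean of the 3 controls as a covariate, added after the values were seen, 0 of 30 genes passed between tumours and hyperplasia. Between older and young pools 1 passed, and between tumours and older pools 3 passed, namely Pgk1, Pgam1 and Ndrg1. Of all 31042 probe sets, 673, 1126 and 3773 passed in these comparisons, in that order. The counts of genes thus rose with the counts of all probe sets and do not single out these 3 genes. Age and the gap between 3′ and 5′ control signals differ together between the young and the older arrays and cannot be told apart.

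Of the 31 genes, 11 have more than 1 probe set, 29 in all. For Slc2a3 the dimmer probe set read 8.34 to 9.97 on the young arrays and 5.83 to 7.22 on the older ones, a difference of -2.35 ± 0.26 between tumours and hyperplasia (adjusted p = 4.04e-06), where the brighter one gave -0.34 ± 0.14 (0.0601). Ndrg1 and the control probe sets of Hk1 showed the same step with age in their dimmer probe sets. For Vegfa the probe sets went opposite ways between tumours and hyperplasia, at 0.55 (adjusted p = 0.011) and -0.85 (0.0068), and for Bnip3l likewise, at -0.45 (0.000664) and 0.36 (0.00116). With each lesion set against its own wild-type pools, none of these 4 probe sets passed. For Pgk1 the second probe set gave -0.02 ± 0.08 between tumours and hyperplasia (adjusted p = 0.842), where the brightest gave -0.33. Between older and young pools it gave 0.43 ± 0.12 (adjusted p = 0.0208), where the brightest gave 0.04. The sources used here do not say which part of a transcript each probe set reads.

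**Figure D4:**
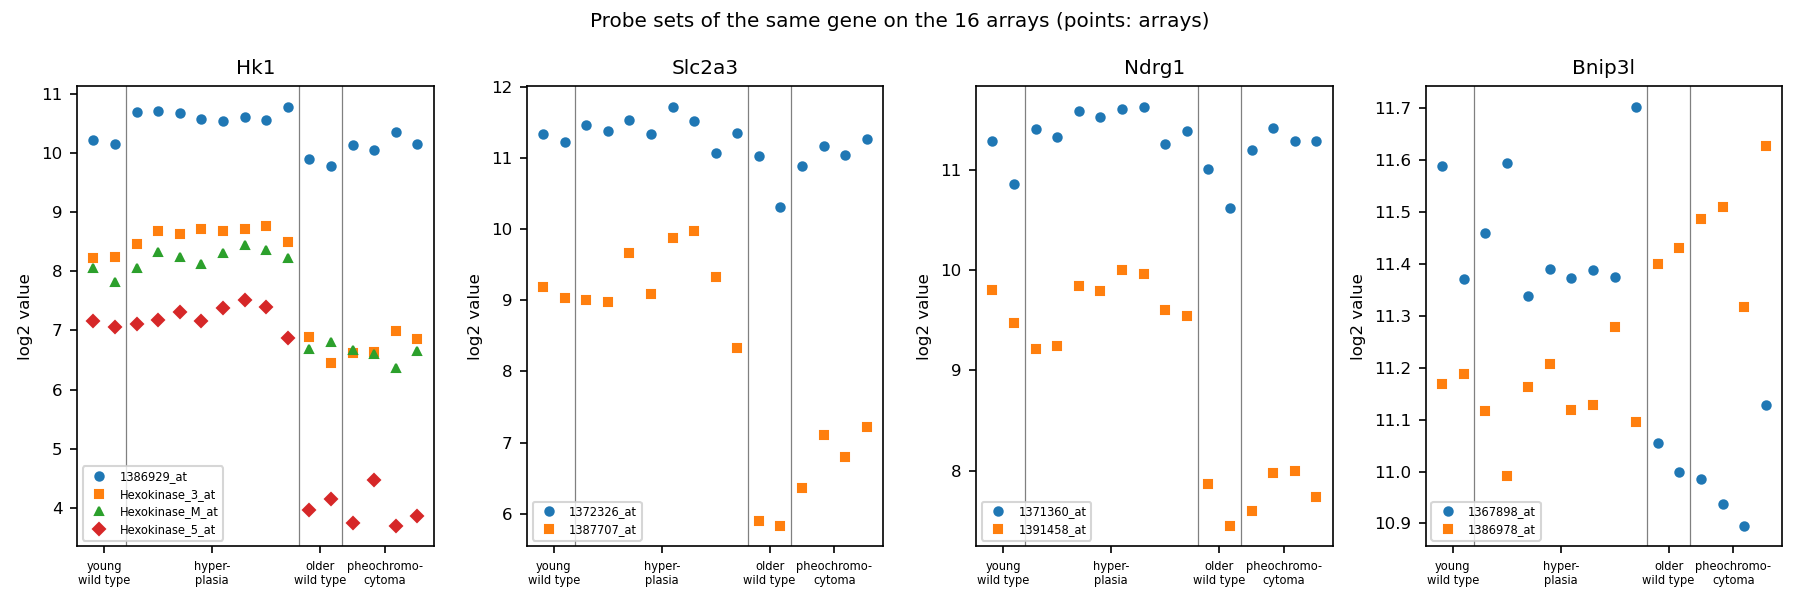
Log2 values of probe sets of Hk1, Slc2a3, Ndrg1 and Bnip3l on the 16 arrays, with a separate vertical scale for each gene. Groups run from left to right as young wild type, hyperplasia, older wild type and pheochromocytoma. The 3 control probe sets of Hk1 and the dimmer probe sets of Slc2a3 and Ndrg1 step down between the young and the older arrays. Their step is larger than that of the brightest probe set of the gene. The 2 probe sets of Bnip3l move in opposite directions. The dimmest probe set of Hk1, which does not step down, is not shown.

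Within hyperplasia, the 4 arrays with Xist signal and the 4 without it were set side by side, as a description with no test. Aldoc, Ndrg1 and Higd1a were higher on every array with Xist (3 of 31, 9.68%, against 8.63% of all genes). Pfkl, Pfkp, Aldoa, Gapdh, Eno2 and Angptl4 were lower on every one (6 of 31, 19.4%, against 8.93%). Gapdh read 12.22 to 12.26 with Xist and 12.35 to 12.62 without, and Angptl4 read 6.26 to 7.04 with it and 7.11 to 8.05 without. Hk1 overlapped, at 10.54 to 10.68 and 10.56 to 10.78, all above both young pools.

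Around these genes lie others of the same pathways, listed separately. Of 26 other glycolytic isozymes and glucose-handling genes, 2 rose and 0 fell in hyperplasia. There 6 had an unadjusted p under 0.05 on the higher side and 2 on the lower, beside 25.6% of all genes on either side. The 2 that passed were Gpd2, the mitochondrial glycerol phosphate dehydrogenase (0.63 ± 0.17), and Slc16a7, a monocarboxylate transporter (0.53 ± 0.14). In the tumours 3 of the 26 rose and 3 fell, among them Pck1 of gluconeogenesis (-1.31 ± 0.29), Galm (-0.71 ± 0.19), Pklr (-0.56 ± 0.18) and again Slc16a7 (0.56 ± 0.16). The median of this list was -0.06 in hyperplasia and -0.12 in the tumours.

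Of 11 genes for the entry of pyruvate into mitochondria, Pdk2, a second pyruvate dehydrogenase kinase, rose in hyperplasia (0.61 ± 0.14) and Pdp2, the opposing phosphatase, fell in the tumours (-1.13 ± 0.21). Next in order of p were Pdhb in hyperplasia (-0.32 ± 0.12, adjusted p = 0.126) and Pdhx in the tumours (-0.62 ± 0.21, 0.0634). Of 11 glycogen genes Gys2 (-0.60 ± 0.12) and Ugp2 (-0.55 ± 0.11), which makes UDP-glucose, fell in hyperplasia. In the tumours Ugp2 fell (-0.63 ± 0.12), and Pygb was at 0.35 ± 0.11 (adjusted p = 0.0541). Of 7 pentose phosphate genes none passed in hyperplasia, where 1 had an unadjusted p under 0.05 (Pgd, -0.53 ± 0.23, adjusted p = 0.19). Pgd, 6-phosphogluconate dehydrogenase, fell in the tumours (-1.28 ± 0.26, adjusted p = 0.00596), beside H6pd at -0.77 ± 0.28 (0.0773).

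Of 37 other hypoxia-responsive genes, 3 rose and 1 fell in hyperplasia. They were the chemokine receptor gene Cxcr4 (1.73 ± 0.24, adjusted p = 0.00096), Mxi1 (0.49 ± 0.13) and Narf (0.48 ± 0.13) upward and the transcriptional repressor Bhlhe40 (-1.11 ± 0.18, adjusted p = 0.00255) downward. In the tumours 2 rose and 1 fell, namely Cxcr4 (1.02 ± 0.27), the histone demethylase gene Kdm3a (0.45 ± 0.12) and Bhlhe40 (-0.90 ± 0.20). The median of the list was -0.10 in hyperplasia and 0.00194 in the tumours. Among 9 genes of the hypoxia-inducible factors and their sensors, Epas1, which codes for HIF-2α, rose in both lesions, by 1.03 ± 0.15 (adjusted p = 0.00114) and 0.60 ± 0.17 (0.03). Arnt2 (0.58 ± 0.17) also rose and Vhl (-0.35 ± 0.11) fell in the tumours. Of 8 Nrf2 targets, read because Hmox1 answers to Nrf2 as well, 0 passed in hyperplasia, with 3 at an unadjusted p under 0.05. In the tumours 3 fell, Gclc (-1.47 ± 0.27), Srxn1 (-1.24 ± 0.34) and Slc7a11 (-0.90 ± 0.27), while Hmox1 did not.

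These lists held 10 calls among 109 list entries (Egln1 and Egln3 stand in more than 1 list) in hyperplasia (9.17%, against 8.5% of all genes) and 18 in the tumours (16.5%, against 15.3%), 16 of which are named above. Both shares lie near those of all genes. Whichever single array was left out, Cxcr4 and Epas1 still passed in hyperplasia, and the other 8 hyperplasia calls and all 16 named tumour calls were lost without at least 1 array. With the mean of the cortex markers in the fit, 7 of the 10 and all 16 were lost. In the difference of effects 0 of the genes in these lists passed in limma. There 12 of the 109 list entries had an unadjusted p under 0.05, beside 10.3% of all genes.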

How the data were processed

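Total RNA of rat adrenal tissue was measured on 16 arrays with 31099 probe sets. The deposited values are log2 signals, made by the authors with RMA per the submitters' processing notes. The version of RMA and which arrays were normalized together are not given in the sources used here. The number of arrays limits the precision.

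The genes, the related gene lists and the tests were chosen with earlier results of these data known. The 57 control probe sets were left out, except for Gapdh, which was fitted with all 31099. Gene symbols came from the platform annotation, and a gene was read from its brightest probe set with 1 symbol. The model was limma's (version 3.58.1, R 4.3.3; lmFit, contrasts.fit and eBayes), with a level for each of the 4 groups and a term for the labelled sex over all 16 arrays. It left 11 residual degrees of freedom, to which the prior added 3.97. P-values are two-sided, with Benjamini-Hochberg adjustment over 31042 probe sets and a threshold of 0.05. The fit was tested on simulated data. Intervals are at 95%. Labels call the lesion samples biological replicates, and nothing more says how they were obtained, so p-values measure the spread between these samples.

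Full values are given for genes past the threshold in either lesion or in the difference of effects, and for Vegfa, Slc2a1, Pfkfb3, Ldha, Pdk1, Car9 and Pgk1, with ranges and counts for the others. Up to 4 passing genes with the largest difference are named from each related list, or the 2 with the smallest p where fewer than 2 passed. The tumour 4 genes and the probe set pairs were picked after their values were seen. The labels do not say whether replicate numbers pair arrays. Hyperplasia 1 and 2 and tumours 1 and 2 share numbers with pools, with correlations of deviations from -0.08 to 0.05. The deviations of 2 pools from their mean are mirror images, so these correlations cannot decide it.

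Alternatives were another or no sex term, only the arrays compared, a robust prior with an intensity trend, a filter on the 30% dimmest probe sets, quantile normalization, median centring, array weights, a replicate block, a covariate for the cortex markers, averaging a gene's probe sets, and leaving out each array. Added after the data were seen were control probe sets kept, the 3′ minus 5′ control covariate, the fit without the 4 hyperplasia arrays with disagreeing Xist, and the macrophage marker covariate. The RefSeq promoter windows and gene names are of build GRCr8, and all 31 genes matched by Entrez identifier.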

Additional observations from a re-analysis of the deposited data

Results flagged for a closer look

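In 62 groups of values (31 genes in hyperplasia and in pheochromocytoma), 2 genes had a sample far from the others of its group by Dixon's test, which flags about 1 in 20 groups by chance. Both lie in tumour 4. Hmox1 read 10.33 there and at most 8.51 in the other tumours, a gap of 0.91 of the range of the 4. Pfkl read 8.54 there and at most 8.21 in the others, a gap of 0.832 of the range.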

How the results depend on the processing

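Each of 37 gene results was recomputed under the alternatives, which gave 846 values. Of these 675 kept their direction and side of the threshold, 141 lost the call, 4 gained one, 3 reversed and 23 changed sign without a call on either side. The reversals were in tumours against hyperplasia: Vegfa at -0.15 with the mean of its probe sets, and Eno2 at -0.21 and Higd1a at 0.29 with the 3′ minus 5′ covariate. Their cause was not tested. In hyperplasia the count of 1 passing gene became 0 with the replicate block, the cortex covariate, the mean of all probe sets, or without the 4 arrays whose Xist disagrees, and 2 (Hk1 and Ndrg1) with the Xist level for sex. Leaving out 1 array gave 0 to 1. In the tumours the count of 5 became 6 with no sex term, the Xist level for sex, an intensity trend or without the dimmest probe sets, and 7 after quantile normalization. It became 0 with only the arrays compared, the replicate block or the cortex covariate, 2 with array weights, and 3 with median centring, the 3′ minus 5′ covariate, the macrophage covariate or without those 4 arrays. Leaving out 1 array gave 0 to 6. For the difference of effects it gave 0 to 2. Between tumours and hyperplasia the count of 9 became 0 with the 3′ minus 5′ covariate and 4 with the macrophage covariate, and leaving out 1 array gave 5 to 10. Between older and young pools the count of 6 became 0 with only the arrays compared, 3 after quantile normalization and 1 with the 3′ minus 5′ covariate, and leaving out 1 array gave 0 to 5. The replicate block left 6 and 4 genes in those 2 comparisons. Pairs share only a number, so a call lost under the block was not read as a weaker effect, although some differences shrank. In the tumours Gapdh went from -0.42 to -0.31 and Ddit4 from -0.85 to -0.71, while Ankrd37 went from 0.63 to 0.65. Signal limits Hk2 and Car9, which lay near the floor of the arrays.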
